A study of Mus musculus with 4 samples.

Results

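The 10 immediate early genes Fos, Fosb, Jun, Junb, Jund, Egr1, Egr2, Nr4a1, Ier2 and Atf3 were followed across splenic Esam dendritic cells (DC) with and without Runx3. Each gene was chosen by name, and its single probe set carrying that symbol alone was taken, so the members are 10 probe sets of 10 genes, out of 19938 genes with such a probe set. All 10 lay at or above a log2 value of 6.5, the background limit of the study's methods, on all 4 arrays.

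RNA came from 4 mice of 6 weeks, 1 array each. The cKO mice (DCRunx3 -/-, n = 2) carried 2 floxed Runx3 alleles and a Cre transgene driven by the CD11c promoter, which is active throughout the DC compartment and not in Esam DC alone. The wt mice (DCRunx3 +/+, n = 2) were their littermates, and the study's flow cytometry compared floxed mice without Cre as +/+, but the labels of the arrays do not say whether the same holds here. Litter 1 and litter 2 each held 1 cKO and 1 wt mouse, all labelled male, and the cells were enriched on magnetic columns and sorted as CD11c and MHC class II positive Esam DC.

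Immediate early genes encode mostly transcription factors and are switched on from standing promoters without new protein synthesis, within minutes of a growth factor, a receptor signal or a stress such as tissue dissociation. Fos and Fosb proteins pair with Jun, Junb or Jund through leucine zippers to form AP-1, the Egr proteins are zinc finger factors, Nr4a1 (Nur77) is an orphan nuclear receptor, Atf3 is a stress-induced bZIP factor that often represses its targets, and Ier2 is a small nuclear protein. In DC these genes report recent signalling, and AP-1 pairs with Irf4 and Irf8 through Batf proteins at DC genes.

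Values are log2 RMA values, that is, background-corrected, normalized log2 array signals, and differences are cKO minus wt on that scale unless stated. Array medians lay between 6.58 and 6.62. The 2 wt arrays stood further apart (median absolute difference 0.163 over 18889 tested probe sets) than the 2 cKO arrays (0.0962). Runx3 itself was at 11.47 and 11.45 on the cKO arrays and at 11.37 and 11.51 on the wt arrays. No source says whether its probe set covers the deleted part, so the value cannot serve as a check of genotype. Xist, the noncoding RNA of the inactive X chromosome, was at 12.78 (cKO) and 12.75 (wt) in litter 1 and at 5.19 (cKO) and 5.15 (wt) in litter 2, against the label male for all 4 mice, so the litter and this split cannot be told apart. Of the defining DC markers, Itgax was between 12.99 and 13.12 and H2-Ab1 between 13.68 and 13.73 on all arrays, and Esam was at 10.60 and 10.64 in cKO and 10.42 and 10.10 in wt. By sign, 4 of 6 listed DC markers and 5 of 8 Esam DC markers were higher in cKO. Both cKO arrays lay above both wt arrays for 3 of the 6 and 5 of the 8, beside 16.4% of all probe sets. The 5 included Itgam (0.75), Cd4 (0.36) and Esam (0.36). In the other direction, Zbtb46 (-0.28), Irf4 (-0.26) and Clec4a4 (-0.19) had both cKO arrays below both wt arrays, as did 23.7% of all probe sets.

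The promoters of members that moved together across the arrays (Fos, Fosb and Jun) and of a pair that did not share their pattern (Nr4a1 and Atf3) are shown for comparison, from RefSeq (build GRCm38.p6), running from 250 bases before to 50 bases after the start site, 5′ to 3′ along the gene. Capitals mark TGACG, a shortened site bound by CREB and ATF factors, on either strand, and in Jun the AP-1-like site TGACATCA.
Fos, chr12:85473640-85473939, plus strand: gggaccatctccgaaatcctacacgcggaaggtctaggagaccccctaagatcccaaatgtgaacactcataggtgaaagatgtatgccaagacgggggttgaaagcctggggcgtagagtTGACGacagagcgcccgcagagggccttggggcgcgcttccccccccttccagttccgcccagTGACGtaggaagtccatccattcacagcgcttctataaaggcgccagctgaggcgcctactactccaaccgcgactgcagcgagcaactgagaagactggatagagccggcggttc
Fosb, chr7:19309996-19310295, minus strand: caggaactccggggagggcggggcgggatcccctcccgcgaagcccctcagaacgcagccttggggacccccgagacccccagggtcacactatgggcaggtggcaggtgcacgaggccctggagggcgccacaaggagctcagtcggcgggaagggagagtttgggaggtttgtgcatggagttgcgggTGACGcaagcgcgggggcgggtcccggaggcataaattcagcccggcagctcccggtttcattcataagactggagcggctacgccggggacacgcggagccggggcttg
Jun, chr4:95052173-95052472, minus strand: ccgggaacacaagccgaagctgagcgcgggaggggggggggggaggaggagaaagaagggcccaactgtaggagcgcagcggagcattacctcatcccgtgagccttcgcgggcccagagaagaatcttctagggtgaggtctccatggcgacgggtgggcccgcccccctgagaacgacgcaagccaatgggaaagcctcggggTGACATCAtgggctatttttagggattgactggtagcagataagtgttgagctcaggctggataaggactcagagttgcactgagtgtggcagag
Nr4a1, chr15:101266596-101266895, plus strand: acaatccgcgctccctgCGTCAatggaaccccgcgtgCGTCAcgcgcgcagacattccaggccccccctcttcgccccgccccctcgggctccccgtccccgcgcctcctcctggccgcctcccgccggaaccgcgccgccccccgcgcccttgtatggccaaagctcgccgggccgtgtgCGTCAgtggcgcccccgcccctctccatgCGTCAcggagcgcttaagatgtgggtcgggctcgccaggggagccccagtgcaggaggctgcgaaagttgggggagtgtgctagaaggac
Atf3, chr1:191183284-191183583, minus strand: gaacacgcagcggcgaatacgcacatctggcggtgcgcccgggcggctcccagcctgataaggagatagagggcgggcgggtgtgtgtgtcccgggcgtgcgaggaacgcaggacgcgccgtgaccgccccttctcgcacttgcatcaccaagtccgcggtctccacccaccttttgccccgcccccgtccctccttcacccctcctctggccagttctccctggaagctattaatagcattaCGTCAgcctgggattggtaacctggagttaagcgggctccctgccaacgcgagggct
Both strands were searched, except for the TATA box (TATAAA, gene strand). The 8 members with a window counted had 12 windows, of which 5 belong to Egr2 and partly overlap. TGACG was in 8 of the 12 windows, those of Fos, Fosb, Junb, Nr4a1 and Atf3 and 3 of Egr2, and in 20.8% of 32851 windows of all genes. Nr4a1 held 4 such sites and Fos 2, and TGACATCA was in Jun alone (3.62% of all windows). The CArG box, bound by serum response factor, was in 4 of the 12 windows (1.63% of all windows). All 4 were of Egr2, so by gene it was in 1 of 8. Sequence beyond 250 bases before the start site was not searched. No member window held the RUNX motif TGTGGT (16.8%), the AP-1 site TGACTCA (5.2%), the full cyclic AMP response element TGACGTCA, which contains TGACG (1.79%), or the Egr site GCGTGGGCG (0.612%). These matches are letters in a window and not binding sites, and TGACG fell on both sides of the split described next.

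Between genotypes, no early gene reached the study's thresholds (1.5-fold or more in either direction and a one-way p, not adjusted, of 0.05 or less), which 1.41% of all tested probe sets did. None passed limma's adjusted threshold of 0.05 either, as was the case for all 18889 probe sets (0.0%). At an unadjusted limma p under 0.05, 1 of 10 was lower in cKO (Atf3) and 0 were higher, beside 4.81% and 4.57% of all probe sets (9.38% in either direction). By sign, 6 members were higher and 4 lower in cKO, and the median difference was 0.09, against -0.02 over all probe sets.

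What set these genes apart from one another was the spread of the wt pair. For 6 of them (Fos, Fosb, Jun, Jund, Egr1 and Ier2) wt replicate 1 was the lowest and wt replicate 2 the highest of the 4 arrays, with both cKO arrays in between. This order was found for 7.65% of all probe sets, and both cKO arrays lay between the wt arrays in either order for 23.2%. The other 4 (Junb, Egr2, Nr4a1 and Atf3) did not show it. The grouping was seen in these values and is a description.

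Jun, the AP-1 subunit that can also pair with itself, was at 11.16 and 10.98 on the cKO arrays and at 10.62 and 11.61 on the wt arrays. The wt arrays thus lay 1.99-fold apart, and the cKO arrays fell inside that gap. The difference was -0.05 with a standard error of 0.36 and a 95% interval from -1.02 to 0.93 (limma, adjusted p = 0.983), an interval that holds changes of 1.5-fold either way.

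Fos, the classical serum-induced partner of Jun, was at 8.69 and 8.62 in cKO and at 7.97 and 8.71 in wt. Here both cKO arrays were near the higher wt array, and the difference of 0.31 (95% interval -0.42 to 1.04; limma, adjusted p = 0.805) was the widest upward among the 10. Fosb, which shares the AP-1 partners of Fos, was at 8.12 and 8.02 in cKO and at 7.56 and 8.44 in wt, with a difference of 0.07 (standard error 0.31). Its wt arrays differed 1.84-fold.

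Jund, the Jun family member usually expressed at a steady level in resting cells, was at 9.30 and 9.17 in cKO and at 8.72 and 9.52 in wt. It followed the same order as Jun, with a 1.74-fold gap in wt and a difference of 0.12 (standard error 0.29). Egr1, a zinc finger factor induced through ERK signalling, was at 9.18 and 8.90 in cKO and at 8.51 and 9.35 in wt. Its wt gap was 1.79-fold, and its difference 0.11 (standard error 0.31). Ier2 had the narrowest gap of the 6, with 7.64 and 7.61 in cKO and 7.42 and 7.91 in wt, 1.40-fold apart, and a difference of -0.04 (standard error 0.19).

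**Figure D1:**
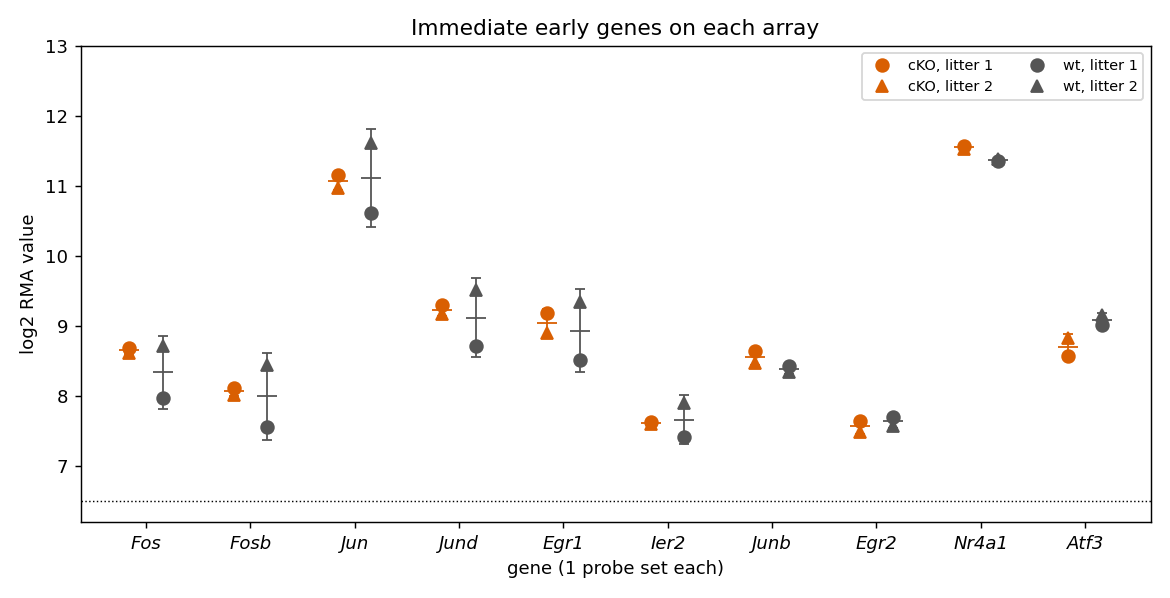
Log2 RMA value (y axis) of each early gene (x axis) on the 4 arrays, cKO in orange left of wt in grey, circles for litter 1 and triangles for litter 2, with the mean (dash) and SD of 2 arrays; the dotted line is the limit of 6.5. For the 6 genes on the left the cKO points sit inside the wt pair, as for Jun (11.16 and 10.98 against 10.62 and 11.61), whereas for Atf3 both cKO points are below both wt points.

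Atf3 was at 8.57 and 8.83 in cKO and at 9.02 and 9.16 in wt, lower in both litters. Its difference of -0.39 had a standard error of 0.13 (limma, unadjusted p = 0.0378, adjusted p = 0.494), a level of 0.763-fold. Atf3 reached neither the study's fold threshold nor its one-way threshold. With the litter as a block the adjusted p was 0.38. It was also the member with the widest gap between cKO arrays after Egr1, 0.26 and -0.28 on the log2 scale (replicate 2 minus replicate 1).

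Nr4a1, a target of antigen receptor and calcium signalling in lymphocytes, had 11.58 and 11.53 in cKO and 11.36 and 11.39 in wt. The groups did not overlap, and the difference of 0.18 (95% interval -0.04 to 0.41; limma, adjusted p = 0.604) came to 1.14-fold. Junb, an AP-1 subunit that can oppose Jun at some promoters, was at 8.64 and 8.47 in cKO and at 8.43 and 8.34 in wt, likewise higher on both cKO arrays, by 0.17 (standard error 0.10). Egr2, which restrains activation in T cells, was at 7.64 and 7.49 in cKO and at 7.71 and 7.57 in wt, overlapping, with a difference of -0.07 (standard error 0.11). In all, both cKO arrays lay above both wt arrays for 2 members (16.4% of all probe sets) and below for 1 (23.7%), so that 3 of 10 did not overlap, against 40.1% of all probe sets.

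Within the littermate pairs the same 10 genes pointed in different directions. In litter 1, cKO exceeded wt for 8 members, by at least 1.5-fold for Fos (0.71) and Egr1 (0.67), and no member was lower by that much; over all probe sets 2.36% were higher and 2.83% lower by that fold. In litter 2, cKO was below wt for 8 members, by at least 1.5-fold for Jun alone (-0.64), and none was higher by that much, beside 3.13% lower and 4.35% higher over all. The median over the 10 was 0.38 in litter 1 and -0.32 in litter 2, against -0.05 and 0.01 over all probe sets. Each pair has 1 array a side, so these are values without a test.

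The sign changed between litters for the 6 genes named above, positive in litter 1 and negative in litter 2, an order shown by 14.3% of all probe sets. For the 6 it follows from wt replicate 1 being lowest and wt replicate 2 highest, so it is not a further result. Jun differed by 0.55 in litter 1 and -0.64 in litter 2, and Fosb by 0.56 and -0.42. For Junb (0.21 and 0.13), Nr4a1 (0.22 and 0.15), Egr2 (-0.06 and -0.08) and Atf3 (-0.45 and -0.33) both litters agreed in sign and nearly in size.

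**Figure D2:**
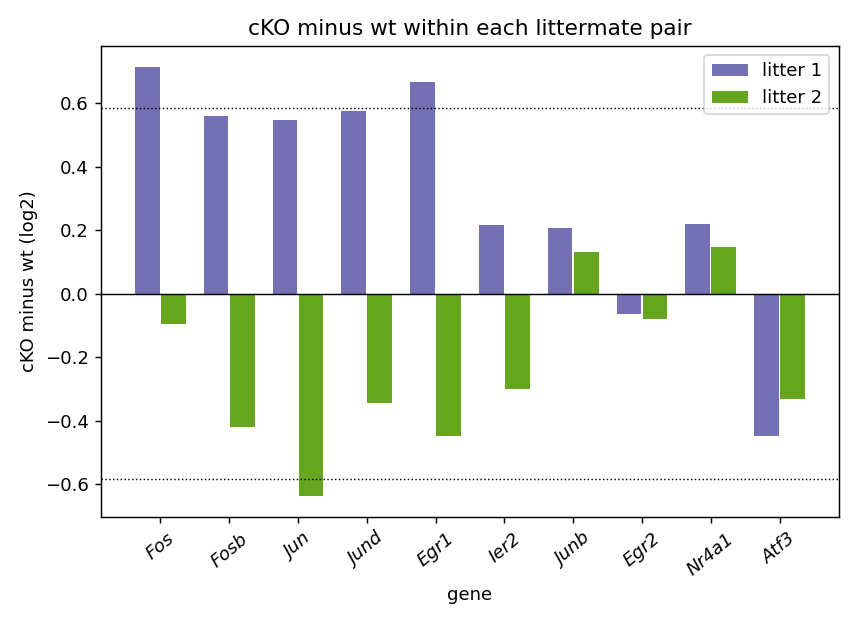
cKO minus wt (log2, y axis) for each early gene (x axis) in litter 1 (purple) and litter 2 (green), 1 array of each genotype per litter; dotted lines mark 1.5-fold. The first 6 genes are positive in litter 1 and negative in litter 2 (Jun 0.55 and -0.64), and the last 4 keep their sign.

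The members' median difference, 0.09 with all arrays, depended on single arrays. Without wt replicate 1 it was -0.28, and without wt replicate 2 it was 0.33. Without cKO replicate 1 it was -0.00722, and without cKO replicate 2 it was 0.15. For the 6 genes with wt replicate 1 lowest and wt replicate 2 highest, the direction of the wt shifts follows from that order. These fits leave a single array in a genotype, so only the size of the difference is given.

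The gap between arrays was itself set against all probe sets. From wt replicate 1 to wt replicate 2, 5 members (Fos, Fosb, Jun, Jund and Egr1) were at least 1.5-fold higher and 0 lower, whereas 2.78% of all probe sets were higher and 4.72% lower by that fold. The median of this gap was 0.61 over the members and -0.05 over all. Between the cKO arrays, replicate 2 minus replicate 1, no member moved by 1.5-fold in either direction (1.83% higher and 1.46% lower over all), 9 were lower in replicate 2, and the median was -0.12 against 0.01 over all. In litter 2 against litter 1, over both genotypes, 0 of 10 members had an unadjusted limma p under 0.05 (5.45% of all probe sets) and 0 an adjusted one (0.0265%), and the widest difference was 0.40 for Jun (limma, adjusted p = 0.897).

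**Figure D3:**
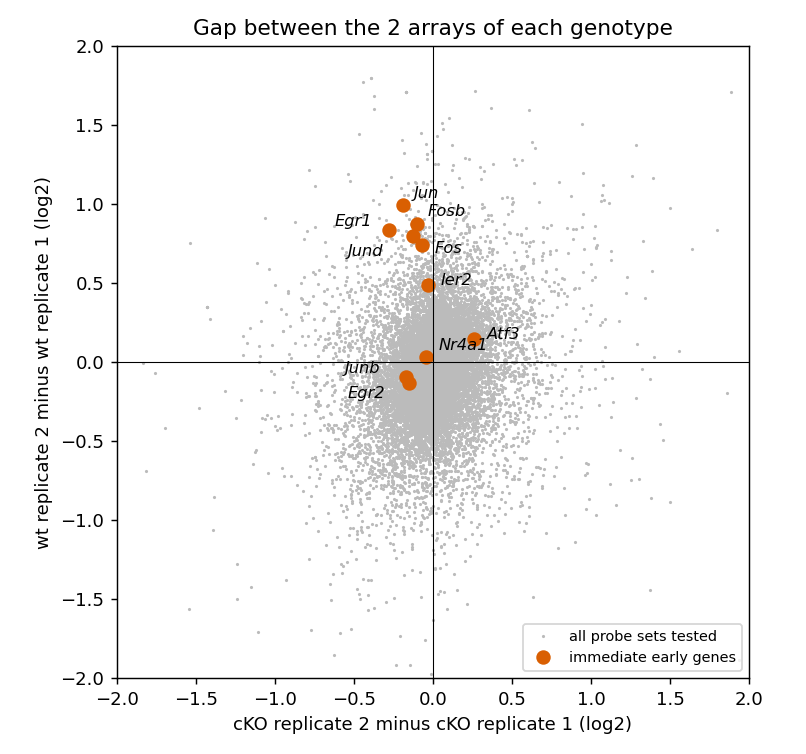
Replicate 2 minus replicate 1 (log2) in the 2 cKO arrays (x axis) and in the 2 wt arrays (y axis) for all tested probe sets (grey) and the early genes (orange); 21 probe sets lie outside the axes. Jun, Fosb, Egr1, Jund and Fos sit at 0.74 to 0.99 on the wt axis and at -0.28 to -0.07 on the cKO axis, and Junb, Egr2 and Nr4a1 lie between -0.17 and 0.03 on both.

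Other genes of the early response were set beside the 6. Of 45 listed, 36 were tested, 7 were below 6.5 on every array and 2 (Cyr61 and Ctgf, older symbols) matched no probe set under those names. Their median gap from wt replicate 1 to wt replicate 2 was -0.04, and 5 of 36 had the order of the 6 (7.65% of all probe sets), namely Rhob, Btg2, Klf4, Klf10 and Arc. The opposite order, wt replicate 1 highest and wt replicate 2 lowest, was also found for 5 of 36 (15.5% of all probe sets), namely Gadd45b, Dusp5, Ier3, Nfkbiz and Socs3. Apart from Gadd45b and Dusp5, these 10 lie outside the naming rule and were picked with their values in view. Rhob, an immediate early small GTPase, was at 7.81 and 7.62 in cKO and at 7.55 and 8.26 in wt, the only one of the first 5 past 1.5-fold between the wt arrays. Gadd45b and Dusp5 were past it in the opposite order. Gadd45b, a stress and NF-kappaB target, was at 11.16 and 10.91 in cKO and at 11.55 and 10.46 in wt, and the ERK phosphatase gene Dusp5 at 10.12 and 9.74 in cKO and at 10.36 and 9.43 in wt.

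A further pair split by litter. Per1, a clock gene that is also induced by glucocorticoid and cyclic AMP, was at 8.62 and 9.50 in cKO and at 8.65 and 9.49 in wt. Fosl2, the Fos relative Fra-2, was at 6.54 and 7.10 in cKO and at 6.29 and 7.05 in wt, with its lowest array under the limit of 6.5. In both genes replicate 2 was higher in each genotype, unlike Fos and Fosb.

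Between genotypes, 3 of the 36 were higher and 3 lower in cKO at an unadjusted limma p under 0.05 (4.57% and 4.81% of all probe sets), and 1 and 2 of these passed the study's thresholds (beside 0.9% higher and 0.514% lower over all probe sets). Cd69, an early activation receptor that retains cells in lymphoid tissue, was at 8.93 and 8.77 in cKO and at 7.88 and 7.49 in wt, a difference of 1.17 (limma, adjusted p = 0.223). Myc was at 9.23 and 9.11 in cKO and at 10.44 and 10.30 in wt, a difference of -1.20. Gadd45g was at 7.02 and 6.83 in cKO and at 7.62 and 7.82 in wt, a difference of -0.79. Klf2, a zinc finger factor of quiescent leukocytes, was 1.52-fold higher at 8.31 and 8.30 in cKO and 7.51 and 7.90 in wt, but was not past the one-way threshold. Trib1 (0.54) and Nr4a3, a relative of Nr4a1 (-0.39), were the other pair under that unadjusted limit, chosen after their values were seen. None passed limma's adjusted threshold.

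**Figure D4:**
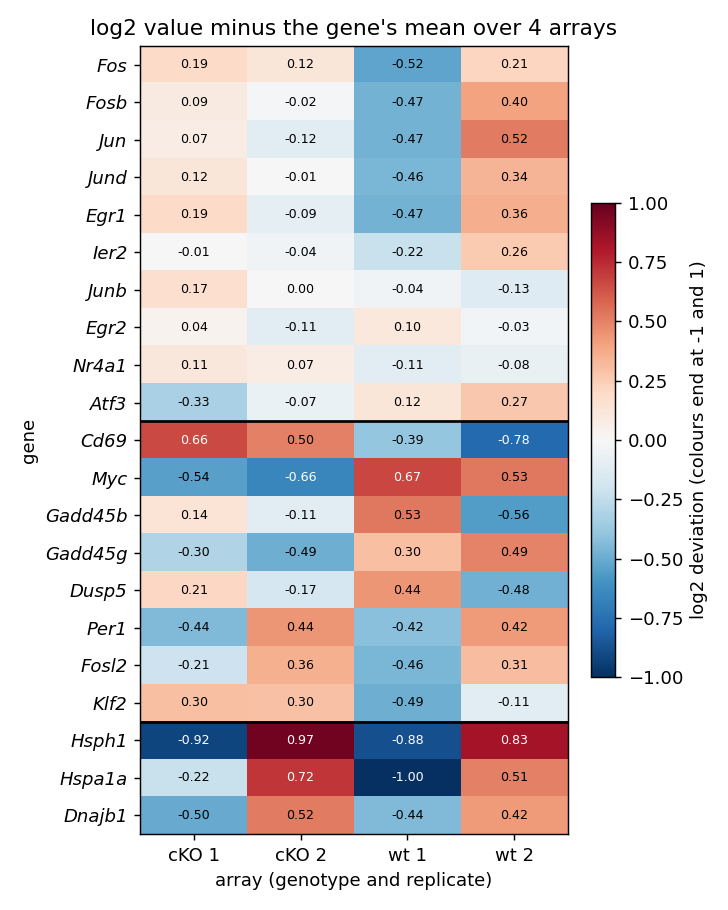
Log2 value minus the gene's own mean over the 4 arrays (columns, cKO then wt) for the 10 early genes, 8 other early response genes with the widest range and 3 heat shock chaperones (rows, separated by lines). The first 6 rows are lowest on wt 1 (Fos -0.52) and highest on wt 2 (Jun 0.52), Cd69 and Myc divide by genotype, and Hsph1, Hspa1a and Dnajb1 divide by litter.

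Among bZIP genes that share partners with AP-1, 14 of 18 were tested. At an unadjusted limma p under 0.05, 2 were higher and 1 lower in cKO, beside 4.57% and 4.81% of all probe sets. Nfe2l2, the oxidative stress factor Nrf2, was at 11.27 and 11.59 in cKO and at 10.60 and 10.72 in wt, 1.70-fold higher, and it alone of the 14 passed the study's thresholds (0.9% of all probe sets higher, 0.514% lower). Bach2, a repressor at AP-1-like sites, was at 7.50 and 7.10 in cKO and at 6.81 and 6.76 in wt. Jdp2, a repressing partner of Jun, was at 6.55 and 7.01 in cKO and at 7.23 and 7.44 in wt, a difference of -0.56 (standard error 0.19). Batf3, which pairs with Jun proteins in cDC1, differed by -0.29 (standard error 0.12). Of the 14, 1 had both cKO arrays between the wt arrays (23.2% of all probe sets) and 0 had the order of the 6 early genes (7.65%). The genotypes did not overlap for 10 of the 14 (5 higher and 5 lower in cKO), beside 40.1% of all probe sets. Many of the 14 varied little: the range over the 4 arrays had a median of 0.13 and ran from 0.02 to 1.15, against a median range of 0.30 over all probe sets.

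Among the factors and kinases that switch early genes on, 19 of 26 listed were tested. Of these, 0 were past the study's thresholds (1.41% of all probe sets) and 0 under an unadjusted limma p of 0.05 (9.38%). Both cKO arrays were below both wt arrays for 10 and above for 4, so that 14 of 19 did not overlap, where 40.1% of all probe sets did not. The differences were small: the median was -0.06, and the range over the 4 arrays had a median of 0.18 and ran to 0.48 (Nab2, a corepressor of Egr factors, chosen after its values were seen), against a median range of 0.30 over all probe sets. The smallest unadjusted p-values were those of the kinases Rps6ka5 (-0.21) and Rps6ka3 (-0.16), the serum response factor partner Elk1 (-0.16) and the JNK gene Mapk8 (0.18). Over the 19 the median gap was -0.01 between the wt arrays and 0.02 between the cKO arrays.

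Heat shock chaperones, also early stress transcripts, took another order. All 9 tested (of 13) had their higher values in litter 2 in both genotypes, with a median gap of 0.69 between the cKO arrays and 0.52 between the wt arrays. Hsph1 was at 8.42 and 10.31 in cKO and at 8.46 and 10.17 in wt. Hspa1a was at 11.06 and 12.00 in cKO and at 10.29 and 11.79 in wt, and Dnajb1 at 8.71 and 9.73 in cKO and at 8.77 and 9.64 in wt. In 0 of the 9 were both cKO arrays between the wt arrays, a pattern of 23.2% of all probe sets, and their part in the early gene values was not tested.

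Markers of other cells were set beside the wt gap. For macrophages, 8 of 10 listed symbols were tested, and Emr1, 1 of those not tested, is an older symbol of Adgre1. The summed level of the 8 was 84.4 and 85.3 in cKO and 79.2 and 81.9 in wt. It was lowest on wt replicate 1, as were the 6 early genes, but highest in cKO, as the 6 were not. Of the defining ones C1qa was at 8.96 and 8.92 in cKO and at 8.09 and 8.63 in wt. C1qb, C1qc, Vcam1, Mertk and Csf1r were also lowest on wt replicate 1, though C1qb hardly differed between the wt arrays (9.64 and 9.66). Adgre1 (12.08 and 12.07 in wt) and Cd68 (12.43 and 12.27 in wt) were lowest on wt replicate 2. For cDC1, with 9 of 9 tested, the sum was 94.4 and 94.4 in cKO and 87.8 and 86.7 in wt. Of the 9, 6 were higher at the study's thresholds (0.9% of all probe sets). Batf3 and Wdfy4 went the other way (-0.29 each), with both cKO arrays below both wt arrays. Monocyte markers, 4 of 6 tested, summed to 37.8 and 38.3 in cKO and to 33.8 and 33.6 in wt. All 4 had an unadjusted limma p under 0.05, higher in cKO (4.57% of all probe sets). For pDC, 5 of 7 were tested, and the sum was 42.5 and 43.4 in cKO and 38.4 and 38.8 in wt. At that limit 4 of 5 were higher, and Bst2 was lower by sign (-0.12). These sums divided by genotype and not in the order of the 6 early genes. For B cells, with 4 of 6, the sum was 35.7 and 35.2 in cKO and 35.2 and 33.3 in wt. All 5 NK cell and all 6 neutrophil markers were below 6.5 on every array, as were 4 of 7 T cell markers, Cd3e among them. Of the remaining T cell markers, 2 had no probe set of that symbol alone. The other, Cd5, was at 9.36 and 9.07 in cKO and at 9.49 and 9.30 in wt. In sorted bulk cells, fewer cells of a type and less RNA per cell cannot be told apart, and the part of these cells in the early gene values was not tested.

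Other genes were ranked by how close their 4 values, each centred on its own mean, lay to the mean profile of the 10. This profile was 0.07 and -0.02 in cKO and -0.25 and 0.21 in wt. It joins the 6 genes with the other 4, and the median of the 6 alone was -0.47 and 0.35 in wt. By Euclidean distance over the 4 arrays the first 10 of 9884 other genes were Irf2bp2 (0.05), Drap1 (0.06), Hexdc, Snora31, Ndufa12, AY036118, Inafm2, Snora33, Gm15455 and Ptma-ps2 (0.10). The median distance over the other genes was 0.43. Only 36 of the 9884 were tested members of the list of other early response genes. That 0 of them were among the first 10 therefore says nothing about early genes. Irf2bp2, a corepressor of Irf2, was at 10.43 and 10.41 in cKO and at 10.13 and 10.60 in wt. Among the members, Ier2 was the closest to their mean profile (0.09) and Atf3 the farthest (0.55).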

How the data were processed

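The authors deposited log2 values from robust multichip averaging (RMA) with GC correction, run in Partek (version not given in the sources used here, build mm9 in the submitters' processing notes). The methods name an exon 1.0 ST array and the platform annotation a gene-level one, so no probe set is read as an exon, and labels and methods name different RNA kits. RMA pulls the arrays to a common distribution, so a shift shared by all genes would not be seen. No background value per probe set was analysed here, and the number of arrays limits the precision.

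Of 35399 probe sets, 21789 carried exactly 1 symbol. A probe set was tested if it reached 6.5 on at least 1 array (18889 probe sets). Genes with several were represented by the brightest by mean level, and each early gene had 1. Differences were fitted with limma (version 3.58.1, R 4.3.3), cKO minus wt. Tests were two-sided, with p-values adjusted by Benjamini and Hochberg's method over all tested probe sets. The residual degrees of freedom were 2 and the prior ones 2.2, and p-values refer to 2 mice per group. No array was dropped or imputed in these fits. The study's thresholds used the methods' one-way test. The fit was tested on simulated data with known changes.

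The labels place a cKO and a wt mouse in each litter, and deviations from group means correlated within litters (r = 0.27 across probe sets, which are not independent). The litter was a block in an alternative fit. Other alternatives were the filter, scaling, variance model, probe sets per gene and leaving out each array. The members and lists were chosen with earlier results of these data known. Named were the members, Runx3, the 8 other early genes of widest range, up to 4 AP-1 partners and 4 inducing factors of smallest p, 3 chaperones of widest range and the 10 closest profiles. Promoters came from the RefSeq table (GRCm38.p6). A window was counted for 8 of 10 members.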

Additional observations from a re-analysis of the deposited data

Results flagged for a closer look

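For 6 of the 10 early genes the 2 litters gave opposite signs of cKO minus wt, with the single cKO array above the single wt array in litter 1 and below it in litter 2. These are the genes with wt replicate 1 lowest and wt replicate 2 highest, from which the signs follow. The difference between the litters was not tested, since each litter holds 1 array of each genotype. The value in litter 2 less that in litter 1 was -1.18 for Jun, -1.12 for Egr1, -0.98 for Fosb, -0.92 for Jund, -0.81 for Fos and -0.52 for Ier2 on the log2 scale. Groups of 2 arrays were too small to look for single outlying arrays by rule.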

How the results depend on the processing

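No early gene passed the study's thresholds under any of the alternatives run with all 4 arrays, limma's unadjusted p with the same fold included. At an unadjusted limma p under 0.05 the count of early genes was 1, and 2 with a trend and robust variance (Nr4a1 added to Atf3); it ran from 0 to 5 when each array was left out in turn. For litter 2 against litter 1 the count was 0, beside 5.45% of all probe sets. The median difference of the members ran from -0.28 to 0.33 with an array left out, against 0.09 with all. With the litter as a replicate block, which the labels provide, the count of early genes at that unadjusted limit was 1 (Atf3 again), and probe sets past the study's thresholds numbered 135 against 267 over all genes. Leaving out 1 array gave 113 to 281 of them. Probe sets past limma's adjusted threshold were 0, but 1 with 6.5 required on all 4 arrays, 1 after quantile normalization, 2 with a trend and robust variance and 42 with 1 probe set per gene, early genes being 0 among the 42. The difference of cKO minus wt changed sign with an array left out for Fos (-0.0602 to 0.68), Fosb (-0.37 to 0.51), Jun (-0.54 to 0.45), Jund (-0.28 to 0.51), Egr1 (-0.31 to 0.53), Ier2 (-0.29 to 0.20) and Egr2 (-0.15 to 0.00235), and kept it for Junb, Nr4a1 and Atf3. For litter 2 minus litter 1 the same held for Fos (-0.0221 to 0.69), Egr1 (-0.056 to 0.61), Nr4a1 (-0.12 to 0.10) and Atf3 (-0.0227 to 0.43). Nr4a1, at -0.01, was at 0.00842 with arrays centred on the median and 0.00659 after quantile normalization. The cause was not tested.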
